A study of Hirudo medicinalis with 12 samples.

Results

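Among transcripts measured along the nerve cord of the medicinal leech, 200 stood higher in every library of ganglion 10, in the middle of the body, than in any library of ganglion 2 near the head or ganglion 19 toward the tail. They were chosen from the counts of an assembly whose identifiers name a component and a sequence within it. Of 58593 components, 48935 held a single row, so that the row and the component are the same transcript. For each of these, counts were divided by the library total and multiplied by 1000000 to give CPM, and the level was written as log2(CPM + 1). The gap is the lowest ganglion 10 level minus the highest level at either end of the chain. It was above 0 in 506 components, and the 200 with the largest gaps are described here. Since the choice used all 12 libraries and this contrast, a higher level in ganglion 10 is a property of the selection. The sizes of that difference are given as a description, with no test.

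The leeches were adult Hirudo medicinalis, held in tanks at 16 °C, and the labels name no treatment and no genetic change. Total RNA was sequenced from ganglion 2 (libraries 1, 4 and 7), ganglion 10 (libraries 2, 5, 8, 10, 11 and 12) and ganglion 19 (libraries 3, 6 and 9). The design text speaks of 3 leeches and the labels do not tie libraries to animals, so some of the 6 ganglion 10 libraries may share a leech, and a p-value here weighs a difference against library spread alone. Libraries 1, 5, 9, 10 and 11 ran in lane 4, libraries 2, 3, 4, 6 and 8 in lane 8 and libraries 7 and 12 in lane 2, and the selection places ganglion 10 above the ends within each lane too. The identifiers carry no gene names, so the proteins that these transcripts encode are not given, and the tissue was not checked against markers of neurons, glia, muscle or blood.

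The leech cord is a chain of segmental ganglia joined by connectives, with a brain at each end. Every midbody ganglion holds a largely repeated set of identified neurons, among them the touch, pressure and nociceptive sensory cells, the serotonergic Retzius cells and motor neurons of the body wall, wrapped by giant glial cells. The repetition is not complete. Heart motor neurons are found through most of the midbody ganglia and are missing from the frontmost and hindmost ones, and some interneurons and effector cells occur in particular segments only. A ganglion sample is bulk tissue, so fewer cells of a type and less RNA per cell cannot be told apart.

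Library totals lay between 6436783 and 19110631 counts. Libraries differed in how many transcripts they held, and this difference followed the ganglion. Between 62.9% and 71.3% of single-row components had a count in each ganglion 10 library, against 30.7% to 56.5% in ganglion 2 and 33.6% to 51.6% in ganglion 19. Libraries 1 and 3 stood lowest, at 30.7% and 33.6%, and their 10 most counted sequences took 56.6% and 59.5% of all counts, against 20.9% to 41.0% in the other 10 libraries. With every library thinned to 6436783 counts, 28573 to 33926 single-row components were seen in ganglion 10 libraries and 13122 to 27303 in the end libraries. The part of this broader detection in the pattern described here was not tested.

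**Figure D1:**
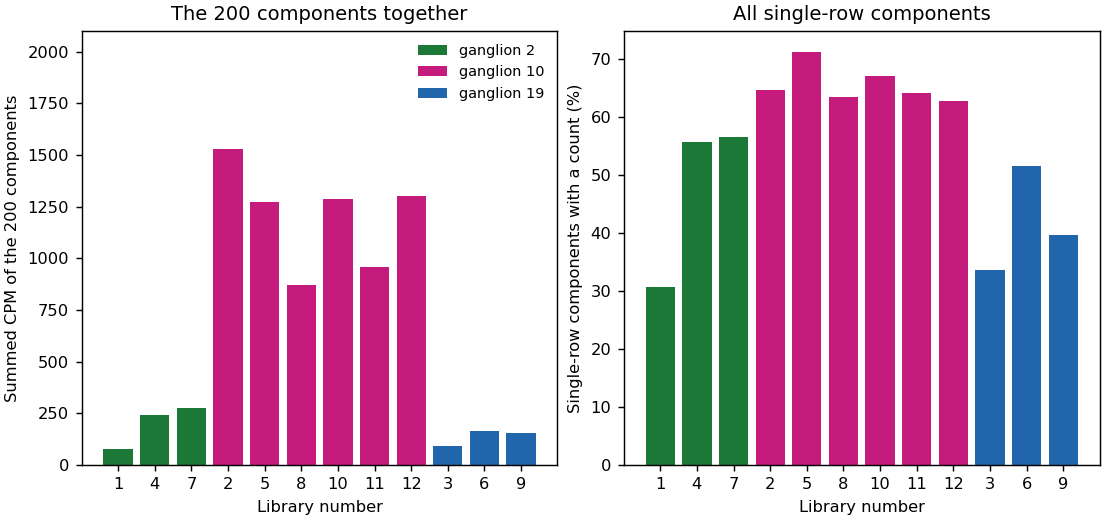
Left, summed CPM of the 200 components in each library. Right, the percentage of all 48935 single-row components with at least 1 count. Bars are single libraries, coloured by ganglion. In the left panel the 6 ganglion 10 bars top all end bars by selection, with sums from 871 to 1531 CPM against 77.2 to 276 CPM. In the right panel, which covers all single-row components, the 6 ganglion 10 bars are also the highest.

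The separation was common in 1 direction and rare in the other. In 506 of 48935 single-row components (1.03%) every ganglion 10 library lay above all 6 end libraries. In 4 (0.00817%) every ganglion 10 library lay below them. To lie above, a component must be counted in all 6 ganglion 10 libraries, as 16085 were, and the 506 are 3.15% of these. To lie below, it must be counted in all 6 end libraries, as 6106 were, and the 4 are 0.0655% of these. Those 4, named because they are so few, were comp43191_c0_seq1, comp31051_c0_seq1, comp7010_c0_seq1 and comp50659_c0_seq1. Components of more than 1 row, summed, showed the same lean, with 48 of 9658 above (0.497%) and 1 below (0.0104%). The split did not turn with the scaling of the libraries. TMM, which corrects for a few very abundant transcripts, gave 426 above and 7 below, and upper quartile scaling gave 385 and 8. At a common depth the counts were 370 and 5. Without libraries 1 and 3, the narrowest of the series, they were 686 and 47.

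The 3 libraries of ganglion 19 lay above the 9 others in 152 single-row components (0.311%), and those of ganglion 2 in 42 (0.0858%). These shares rest on other numbers of libraries and are not comparable in size with the 1.03% for ganglion 10. The share of components that separated changed with the level. It was 0.599% among those averaging 0.1 to 0.3 CPM over all 12 libraries, 1.42% at 1 to 3 CPM, 0.728% at 10 to 30 CPM and 0.129% at 30 to 100 CPM, and no component above 100 CPM separated. The 200 held 5 of the 47 separating components at 0.1 to 0.3 CPM and 61 of the 208 at 0.3 to 1 CPM. They held 75 of 154 at 1 to 3 CPM and 46 of 73 at 3 to 10 CPM. At 10 to 30 CPM they held 11 of 22, and at 30 to 100 CPM 2 of 2. The choice of the largest gaps thus took a smaller part of the separating components below 1 CPM than above it.

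**Figure D2:**
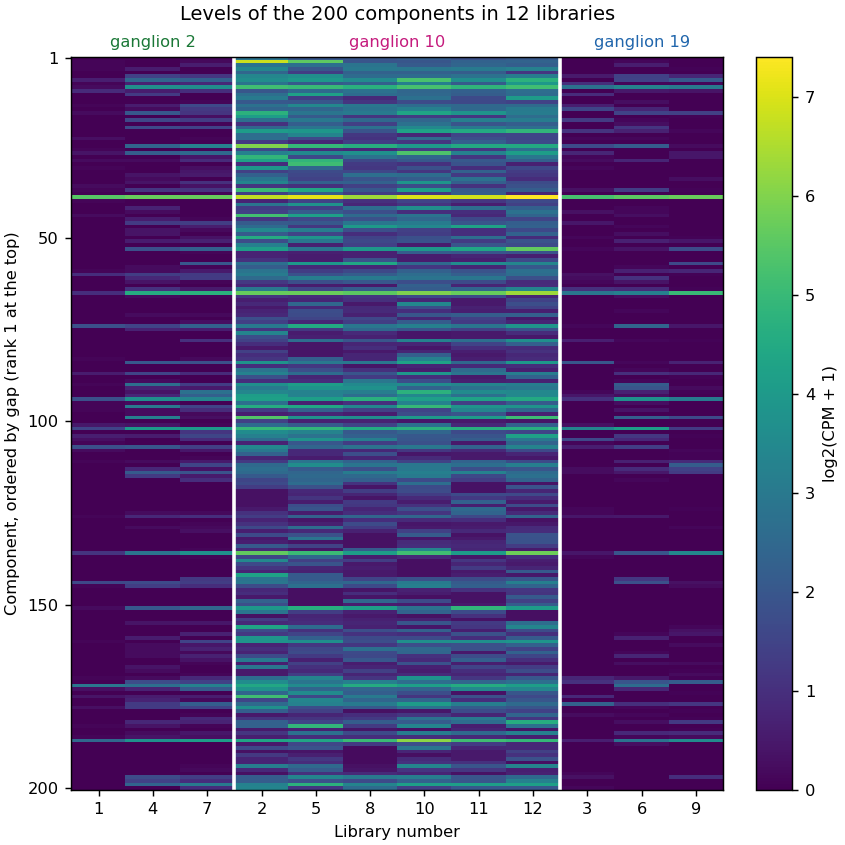
Levels of the 200 components as log2(CPM + 1), 1 row per component with the largest gap at the top and 1 column per library, grouped by ganglion. The 6 ganglion 10 columns are brighter in every row by selection, and 65 rows have no count in ganglion 2 and 86 none in ganglion 19.

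Most of the 200 were weakly counted transcripts. Their mean level in ganglion 10 had a median of 2.99 CPM and ran from 0.428 to 123 CPM, with 30 below 1 CPM, 143 from 1 to 10 CPM and 27 at 10 CPM or more. In the lowest ganglion 10 library of each, the count had a median of 7 and was under 10 in 117 of the 200. The lowest was 2. At the ends the median of the mean level was 0.101 CPM in ganglion 2 and 0.0301 CPM in ganglion 19. Together the 200 summed to 871 to 1531 CPM in a ganglion 10 library, to 77.2 to 276 CPM in one of ganglion 2 and to 89.0 to 162 CPM in one of ganglion 19. CPM counts reads and is not corrected for transcript length, so the levels do not order the transcripts by abundance.

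The gaps themselves were small for all but a few. The median gap of the 200 was 0.39 on the log2(CPM + 1) scale, 65 exceeded 0.5, and 10 exceeded 1. The last transcript inside the selection, comp37489_c0_seq1, had a gap of 0.2151, with 1.28 CPM as its lowest ganglion 10 level and 0.968 CPM in library 7 as its highest end level. The first outside, comp94017_c0_seq1, had a gap of 0.2141, with 0.701 CPM in library 5 and 0.466 CPM in library 4. The 200th and the 201st thus hardly differ, and another 306 components behind them also separated.

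In pooled counts, ganglion 10 stood a median of 21.0-fold above the ends in the 148 transcripts that had any count there, with a range from 2.66 to 450. The other 52 had no count in any of the 6 end libraries, and against 3 counts over those libraries their folds were at least 11.2 to 150. Fitted log2 fold changes of ganglion 10 over the mean of the ends, in an edgeR fit of all 12 libraries that kept 155 of the 200, had a median of 4.67. Over all 41445 contigs kept the same fit had a median of 0.56, so the whole table leans toward ganglion 10. Relative to it the 155 stood 4.11 higher, and 4.04 to 4.11 under the other scalings.

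The transcript with the largest gap, comp111646_c0_seq1, was close to absent outside ganglion 10. It had 2.61, 3.10 and 6.25 CPM as its lowest, median and highest level over the 6 ganglion 10 libraries. In ganglion 2 it had 0, 0 and 0.0745 CPM in libraries 1, 4 and 7, and in ganglion 19 it had 0 CPM in libraries 3, 6 and 9. All 6 ganglion 10 libraries were far above, with library 2 the highest. The pooled counts were 194 in ganglion 10 and 1 at the ends, a ratio of 251 with an exact 95% binomial interval from 44.6 to 9978, which covers counting error only.

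comp24022_c0_seq1 had the largest pooled fold and a very uneven level. It reached 115 CPM in library 2 and 46.8 CPM in library 5, while libraries 8, 10, 11 and 12 held 2.84 to 4.18 CPM. At the ends it had 0.0789, 0 and 0.149 CPM in libraries 1, 4 and 7 and 0, 0.1 and 0 CPM in libraries 3, 6 and 9. That the lower 4 ganglion 10 libraries also lay above the ends is required by the selection. The pooled fold of 450 (interval 175 to 1654) rests mainly on libraries 2 and 5, which held 847 and 401 of the 1389 ganglion 10 counts. comp103736_c0_seq1 was even by contrast, at 3.35, 5.00 and 6.21 CPM (lowest, median and highest) in ganglion 10. Libraries 1, 4 and 7 held 0.0789, 0 and 0.521 CPM and libraries 3, 6 and 9 held 0, 0.5 and 0 CPM, a 27.1-fold difference (interval 15.6 to 51.6).

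comp63667_c0_seq1 had 2.92, 7.08 and 9.65 CPM in ganglion 10 and at most 0.466 CPM at the ends, in library 4. Its low ganglion 10 value was library 5, and without that library its gap was 2.40 in place of 1.42. The pooled fold was 103 (interval 43.6 to 318). comp134039_c0_seq1 had no count in any end library and 1.24, 3.75 and 4.49 CPM in ganglion 10, so it was at least 72.6-fold higher there. It is the member without any end count that had the largest gap.

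**Figure D3:**
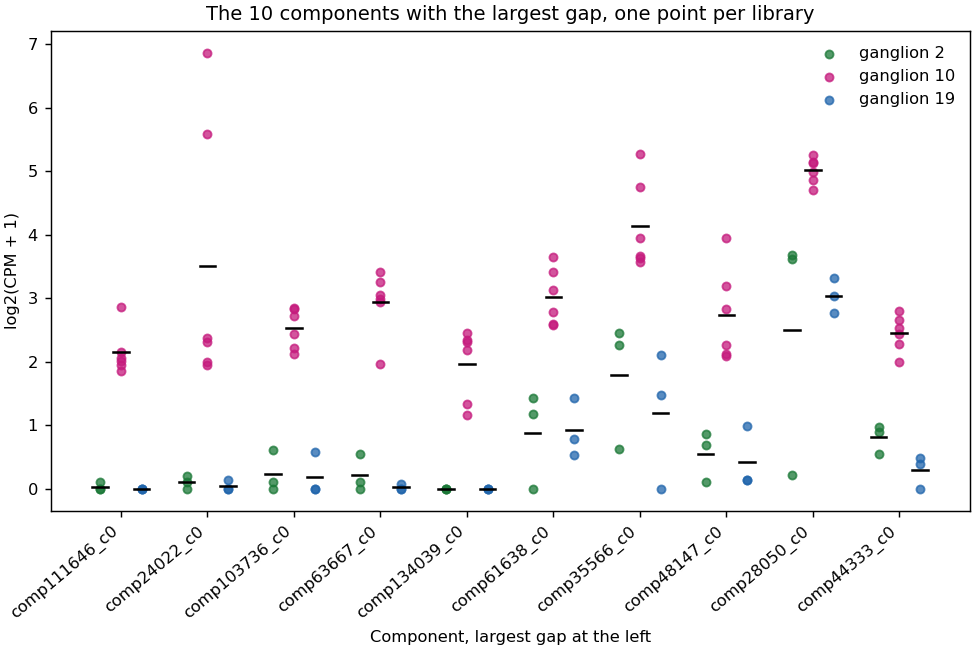
Levels of the 10 transcripts with the largest gap as log2(CPM + 1), 1 point per library, coloured by ganglion, with a black bar at the mean of each group. comp24022 has 2 ganglion 10 points far above the other 4, and comp28050 has the narrowest ganglion 10 spread of the 10.

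The remaining 5 of the top 10 were present at the ends as well. comp61638_c0_seq1 had 5.00, 6.85 and 11.6 CPM in ganglion 10, with 0, 1.71 and 1.27 CPM in libraries 1, 4 and 7 and 0.452, 1.70 and 0.733 CPM in libraries 3, 6 and 9, an 8.38-fold difference in pooled counts. comp35566_c0_seq1 had 10.9, 13.0 and 37.6 CPM in ganglion 10, with 0.552, 4.51 and 3.80 CPM in libraries 1, 4 and 7 and 0, 1.80 and 3.30 CPM in libraries 3, 6 and 9, an 8.24-fold difference. In both, a library that stands apart by its narrow content (1 or 3) gave the 0.

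comp28050_c0_seq1 combined a large gap with a steady level. Its ganglion 10 libraries ran from 25.2 to 37.2 CPM with a median of 32.4 CPM, a mean of 31.6 ± 4.47 CPM (SD, n = 6). Libraries 1, 4 and 7 held 0.158, 11.8 and 11.3 CPM, and libraries 3, 6 and 9 held 5.79, 9.00 and 7.17 CPM. The pooled fold was 4.39 (interval 3.98 to 4.85), on 1764 and 521 counts. Its gap of 1.03 was the same with TMM and fell to 0.67 with upper quartile scaling and 0.62 with median-of-ratios size factors. Library 1 was far below every other library, and the remaining 5 end libraries lay between 5.79 and 11.8 CPM.

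Scaling moved the gaps of comp48147_c0_seq1 and comp44333_c0_seq1 further. Elsewhere in the top 10, that of comp61638_c0_seq1 moved from 1.15 to 0.75 with TMM and that of comp24022_c0_seq1 from 1.74 to 1.11 with upper quartile scaling. comp48147_c0_seq1 had 3.27, 4.96 and 14.4 CPM in ganglion 10 and at most 0.995 CPM at the ends, in library 3. Its gap of 1.10 shrank to 0.40 with TMM and 0.08 with upper quartile scaling. comp44333_c0_seq1 had 2.99, 4.60 and 5.95 CPM in ganglion 10, with 0.868, 0.466 and 0.968 CPM in libraries 1, 4 and 7 and 0, 0.4 and 0.314 CPM in libraries 3, 6 and 9. Its gap of 1.02 was 0.37 with TMM and turned to -0.51 with upper quartile scaling, where library 1 rose above the lowest ganglion 10 library.

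Of the 5 most counted of the 200, comp28050_c0_seq1 is described above and the other 4 were present in every end library. comp13510_c0_seq1 had 81.5, 123 and 169 CPM in ganglion 10, with 44.2, 50.2 and 50.9 CPM in libraries 1, 4 and 7 and 36.9, 45.6 and 51.7 CPM in libraries 3, 6 and 9. All 6 end libraries lay close together, and the pooled fold was 2.66 (interval 2.55 to 2.77), the lowest of all. Its gap of 0.65 turned to -0.48 with TMM, to -1.57 with upper quartile scaling and to -1.10 with median-of-ratios size factors, all of which scale library 1 up. comp13647_c0_seq1 had 45.3, 51.2 and 80.0 CPM in ganglion 10, with 0.946, 23.1 and 25.8 CPM in libraries 1, 4 and 7 and 6.51, 8.30 and 31.5 CPM in libraries 3, 6 and 9 (pooled fold 3.34). It kept a gap of 0.23 with TMM and 0.26 with upper quartile scaling.

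comp20195_c0_seq1 had 19.6, 30.8 and 69.2 CPM in ganglion 10 and came nearest in library 7, with 16.5 CPM. Its gap was 0.22 with TMM and turned to -0.51 with upper quartile scaling. comp22803_c0_seq1 had 15.6, 33.2 and 53.5 CPM in ganglion 10 and its highest end level, 12.3 CPM, also in library 7. It kept a gap of 0.19 with TMM and 0.33 with upper quartile scaling. Over the 200, 185 kept a gap above 0 with TMM, 178 with median-of-ratios size factors and 172 with upper quartile scaling, and 169 kept one under every scaling.

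Which end library came nearest to ganglion 10 differed between transcripts. By column totals, library 7 was the highest end library in 57 of the 148 transcripts with an end count, library 4 in 39, libraries 6 and 9 in 18 each, library 3 in 12 and library 1 in 4. With TMM library 7 led in 49 and library 1 rose to 17. The ganglion 2 libraries 4 and 7 also held the most members at all, 91 and 121 of the 200, against 52 in library 1 and 52, 77 and 65 in libraries 3, 6 and 9. All 200 were counted in each ganglion 10 library, as the selection requires.

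Within ganglion 10 the 200 varied widely. The selection used the lowest of the 6 libraries, which bears on this spread, so it is given as a description. The ratio of the highest to the lowest of the 6 libraries had a median of 5.71 and ran from 1.36 to 76.8. It was under 2 in 11 transcripts, over 5 in 113 and over 10 in 58. The coefficient of variation of CPM had a median of 63.0%, beside 68.7% over the 16085 single-row components counted in all 6 ganglion 10 libraries, whose median level was 4.63 CPM.

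The highest ganglion 10 library was library 2 in 50 transcripts, library 10 in 42, library 12 in 38, library 5 in 32, library 11 in 24 and library 8 in 14. Library 8 was most often the lowest, in 45. In the 58 transcripts with more than a 10-fold range, library 2 was highest in 22. Libraries 2 and 5 were the highest pair in 27 of the 200 (13.5%), beside 13.0% of the 16085 components, and libraries 2 and 12 in 25 (12.5%), beside 4.71%. Across the 200, Spearman's rho between pairs of ganglion 10 libraries ran from 0.530 for libraries 2 and 10 to 0.700 for libraries 8 and 11, beside 0.611 to 0.823 across the 16085 components. This is a correlation across transcripts that share libraries and depth, and is given with no test.

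The steadiest transcript was comp17822_c0_seq1, with 22.2, 25.5 and 30.3 CPM in ganglion 10 and a coefficient of variation of 11.5%. At the ends it was less even, with 1.89, 14.9 and 14.9 CPM in libraries 1, 4 and 7 and 9.32, 16.8 and 1.41 CPM in libraries 3, 6 and 9. Its gap was 0.38, and 0.07 with TMM, -0.28 with upper quartile scaling and -0.32 with median-of-ratios size factors. comp28050_c0_seq1, described above, followed with 14.1%. comp207673_c0_seq1 came next with 16.7%, at 0.467, 0.572 and 0.686 CPM from only 32 counts in ganglion 10 and none at the ends, so it was at least 13.8-fold higher and its evenness is that of 4 to 7 counts per library.

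The most variable transcripts were present in all 6 ganglion 10 libraries but dominated by 1 of them. comp60833_c0_seq1 had 33.6 CPM in library 5 and 0.616 to 2.63 CPM in the other 5, a coefficient of variation of 197%. comp81250_c0_seq1 had 18.4 CPM in library 2, 3.27 CPM in library 5 and 0.239 to 0.549 CPM in the rest. comp145760_c0_seq1 had 9.38 CPM in library 2 and 0.358 to 0.927 CPM in the rest. None of the 3 had a count in an end library, so the gap of each was set by a level of 0.239 to 0.616 CPM, a few counts in the lowest ganglion 10 library.

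The ganglion 10 libraries differ in the kind of values deposited. Libraries 2, 5 and 8 hold whole counts, as do all end libraries, and libraries 10, 11 and 12 hold expected counts that need not be whole. The selection did not compare these libraries with each other, and the difference was tested within ganglion 10. No contig of 30018 (0%) passed edgeR's test at an adjusted p under 0.05, and 1791 (5.97%) had an unadjusted p under 0.05. The common biological coefficient of variation in this fit was 0.969, a wide spread, so a lack of calls does not show equal levels. Of the 200, 150 were tested, none passed, and 8 (5.33%) had an unadjusted p under 0.05, close to the share of all contigs. The 8 were lower in libraries 10, 11 and 12, beside 971 contigs (3.23%) that were lower and 820 (2.73%) higher over the whole table. In the fitted values, 97 of the 150 were lower in libraries 10, 11 and 12 and 53 higher, with a median log2 difference of -0.23. Over all contigs the median was -0.084, and 46.7% were higher. DESeq2 called 489 of 30018 contigs (1.63%), of which 244 (0.813%) were higher and 245 (0.816%) lower in libraries 10, 11 and 12, and 1 of the 200 was among the lower. Within lane 4, the lane that holds both kinds, 106 members were higher in libraries 10 and 11 than in library 5 and 94 were lower.

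That transcript was comp24022_c0_seq1, whose level in libraries 10, 11 and 12 was 3.72 ± 0.640 CPM (SD, n = 3) against 54.9 ± 56.6 CPM in libraries 2, 5 and 8 (SD, n = 3). The log2 difference was -4.19 (SE 1.20, edgeR adjusted p = 0.602), and the edgeR adjusted p was 0.0447 without library 8. Library 8 held 2.84 CPM, like libraries 10 to 12, and without libraries 2 and 5 the log2 difference was 0.23. Libraries 2 and 5 thus stood apart from the other 4, library 8 among them. comp50680_c0_seq1 had 34.0 CPM in library 2 and 1.19 to 7.24 CPM in the other 5 (log2 difference -3.20, edgeR adjusted p = 0.763), and its gap of 0.28 turned to -0.46 with TMM. That log2 difference was -1.44 without library 2 and -0.17 with lane as a term in the fit. comp55731_c0_seq1 had 34.8 and 17.0 CPM in libraries 2 and 5 and 0.823 to 6.09 CPM in the other 4 (log2 difference -2.70, edgeR adjusted p = 0.769), and its gap of 0.60 turned to -0.05 with upper quartile scaling. Without library 2 its log2 difference was -1.76.

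In the other direction the differences were smaller. comp160399_c0_seq1 had 0.680, 0.584 and 0.603 CPM in libraries 2, 5 and 8 and 3.47, 2.88 and 2.63 CPM in libraries 10, 11 and 12, so the 2 kinds of libraries did not overlap (log2 difference 1.96, SE 0.92, edgeR adjusted p = 0.877). comp115877_c0_seq1 had 0.813 ± 0.122 CPM in libraries 2, 5 and 8 and 3.23 ± 1.97 CPM in libraries 10, 11 and 12 (SD, n = 3 each), and comp86995_c0_seq1 had 1.26 ± 0.110 and 4.74 ± 3.07 CPM. Neither passed (edgeR adjusted p = 0.914 and 0.925), and the log2 difference of comp115877_c0_seq1, 1.72, was 1.02 with lane as a term and 1.13 without library 12.

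**Figure D4:**
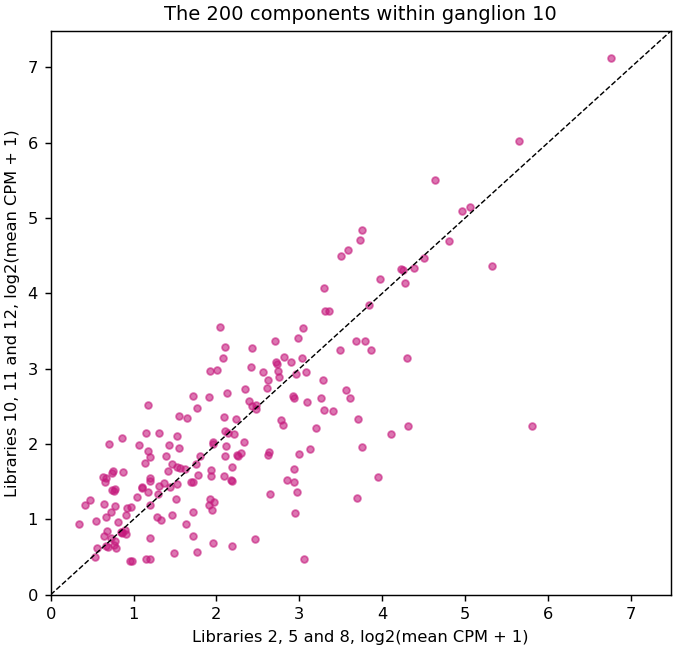
Mean levels of the 200 transcripts within ganglion 10 as log2(mean CPM + 1), libraries 2, 5 and 8 across and libraries 10, 11 and 12 upward, with the line of equal level dashed. Points scatter on both sides of the line, and the farthest below it is comp24022, at 54.9 CPM against 3.72 CPM.

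The chain ends were compared with each other, the contrast between ganglia that the selection left out. Of the 200, 86 had no count in any ganglion 19 library and 65 none in any ganglion 2 library. These figures share the 52 with none at either end, so 34 were counted in ganglion 2 and not in ganglion 19, and 13 the other way round. Among the 16085 components counted in all ganglion 10 libraries, 7.96% had no count in ganglion 19 and 2.40% none in ganglion 2, so the lean toward ganglion 2 is also that of other components. Ganglion 19 libraries had 10001860 to 19110631 counts and ganglion 2 libraries 6436783 to 13429074.

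edgeR's test of ganglion 19 against ganglion 2 called none of 41445 contigs (0%), with 7627 (18.4%) at an unadjusted p under 0.05. This fit had a common biological coefficient of variation of 1.44, so a lack of calls does not show equal levels here either. None of the 155 tested among the 200 passed, and 16 (10.3%) had an unadjusted p under 0.05, of which 15 were lower in ganglion 19 and 1 higher. Of the 155, 21 had no count at either end. They entered the fit through their ganglion 10 counts alone and could not be called. Members with few end counts could enter the same way, so the 10.3% is not comparable with the 18.4% of all contigs. Over all contigs 5116 (12.3%) were lower and 2511 (6.06%) higher at that threshold. Where the 155 had any count at the ends, in 134, the fitted value was lower in ganglion 19 in 95 (70.9%), with a median log2 fold change of -0.83. Over the 40931 contigs with a count at the ends it was lower in 54.0%, with a median of -0.25. Within lanes the direction was not the same. In lane 8, 78 members were lower in CPM in libraries 3 and 6 than in library 4, 39 were higher and 83 equal. In lane 4, 37 were lower in library 9 than in library 1, 55 higher and 108 equal, and library 1 is the one with the narrowest content, with 52 members counted. The median difference was 0 in both lanes. Lane 2 holds no ganglion 19 library. DESeq2 called 3212 contigs (7.75%), 1156 higher (2.79%) and 2056 lower (4.96%) in ganglion 19, and 7 of the 200, 1 higher and 6 lower.

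comp33280_c0_seq1 was counted in ganglia 2 and 10 and in no library of ganglion 19. It had 8.84, 17.2 and 26.0 CPM in ganglion 10, with 0, 4.19 and 7.45 CPM in libraries 1, 4 and 7. On 127 pooled counts ganglion 19 was at least 52.3-fold lower than ganglion 2, though library 1 had none either (edgeR adjusted p = 0.236, DESeq2 adjusted p = 0.000805). comp48948_c0_seq1 had 5.74, 16.4 and 28.3 CPM in ganglion 10, with 0.158, 3.11 and 4.47 CPM in libraries 1, 4 and 7. Ganglion 19 had no count and was at least 33.7-fold below ganglion 2 (edgeR adjusted p = 0.236, DESeq2 adjusted p = 0.000609), and the gap of 0.30 between ganglion 10 and the ends shrank to 0.00076 with TMM. comp42381_c0_seq1 had 9.74, 16.8 and 30.4 CPM in ganglion 10, with 0.0789, 7.15 and 1.79 CPM in libraries 1, 4 and 7. Its ganglion 19 libraries were also empty, at least 29.2-fold below ganglion 2 (edgeR adjusted p = 0.236, DESeq2 adjusted p = 0.00082). In all 3 the order of the means was ganglion 10, then 2, then 19, which the way they were chosen fixed beforehand.

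In comp60982_c0_seq1, chosen for the opposite direction, the ends were exchanged, with ganglion 19 above ganglion 2 and both below ganglion 10. It had 2.76, 17.2 and 28.2 CPM in ganglion 10, none in libraries 1, 4 and 7, and 1.18, 0.600 and 0.105 CPM in libraries 3, 6 and 9. Ganglion 19 held 21 counts, at least 5.67-fold more than ganglion 2 (edgeR adjusted p = 0.236, DESeq2 adjusted p = 0.0230). Its gap of 0.79 was 0.17 with TMM and turned to -0.13 with upper quartile scaling and to -0.17 with median-of-ratios size factors, where library 3 exceeded library 8, its lowest in ganglion 10. The next in that direction, comp76979_c0_seq1 and comp84255_c0_seq1, had 5 and 2 counts in ganglion 19, each from a single library, and none in ganglion 2 (edgeR adjusted p = 0.365 and 0.443).

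**Figure D5:**
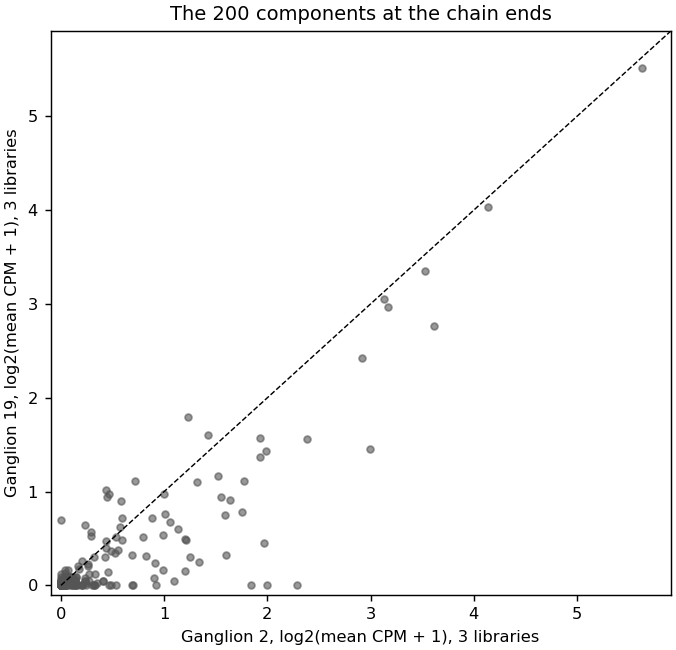
Mean levels of the 200 transcripts at the chain ends as log2(mean CPM + 1), ganglion 2 across and ganglion 19 upward (3 libraries each), with the line of equal level dashed. More points lie below the line than above it, and the 3 on the floor at the right are comp42381, comp48948 and comp33280, at 2.58 to 3.88 CPM in ganglion 2 and 0 in ganglion 19.

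The expected counts of the 200 were also more often whole. The selection used these values, though not whether they were whole. In libraries 10, 11 and 12, 18.5%, 12.5% and 25.5% of the members had a fractional value. Among the 16085 single-row components counted in all ganglion 10 libraries, the shares were 35.7%, 27.0% and 37.5%. Of the 200, 129 were whole in all 3 libraries and 71 were not. The share whole in all 3 was not computed for the 16085. Fractional values can arise when reads that match several sequences are divided among them. None of the 200 had values identical to another row, which 4155 of the 48935 single-row components did. The selection bears on this comparison. It requires a count in all ganglion 10 libraries, which 16085 of the 48935 had. The members' levels were lower than those of the 16085, at medians of 2.99 and 4.63 CPM. The part of level in the difference between the fractional shares was not tested.

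A few component numbers had a second part in the assembly, named c1 beside c0. This was so for 4 of the 200, beside 2.32% of single-row components. In none of the 4 did the second part separate ganglion 10 from the ends. Of all single-row components 1.03% separated, so none of 4 is what most sets of 4 would give. comp3008_c1_seq1 averaged 76.5 CPM in ganglion 2, 59.6 CPM over ganglion 10 libraries and 64.2 CPM over those of ganglion 19, while comp3008_c0_seq1 had a gap of 0.55. comp13510_c1_seq1 averaged 1.34, 3.02 and 2.47 CPM in the same order, with no count in libraries 1, 3, 4 and 9. comp59795_c1_seq1 averaged 0.648, 0.860 and 1.48 CPM. comp33280_c1_seq1, like its c0 part, had no count in ganglion 19 or in library 1, but it had also none in libraries 10, 11 and 12, where the c0 part had 17.1 to 17.6 CPM.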

How the data were processed

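RNA sequencing of 12 leech ganglion libraries was used. The authors deposited a single table of 76845 assembled sequences. Its deposited values are whole-number counts in libraries 1 to 9 and expected counts with fractions in libraries 10, 11 and 12, which were rounded for the tests. Cufflinks, FastQC, RSEM and TopHat appear in the submitters' processing notes with no role, order or version, and the assembler is not given there. Column numbers were matched to the number that opens each library's title. Levels are CPM from column totals, with a pseudocount of 1 before taking log2.

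Tests used edgeR 4.0.16 quasi-likelihood fits with TMM scaling on contigs kept by filterByExpr (minimum count 10), 41445 for the 12 libraries and 30018 for ganglion 10 alone, with Benjamini-Hochberg adjustment over all contigs. Of the 200 members, 45 and 50 did not pass these filters. DESeq2 1.42.0 was an alternative. The fits and the selection were also run on simulated counts, with outcomes not given here. The counts simulated for the selection had no spread beyond counting error, unlike these libraries. SEs were derived from the F statistic. Folds from pooled counts have exact (Clopper-Pearson) 95% intervals, and a fold against 0 counts is a bound computed from 3 counts summed over that group. Both cover counting error only.

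Members and lists were chosen with earlier results of these data known. Named transcripts are the 10 largest gaps, the last inside and first outside, the 5 highest mean CPM, the 3 lowest and 3 highest coefficients of variation, and the 3 smallest p in each direction of each test. R 4.3.3, Python 3.11.15, numpy 2.4.6, scipy 1.17.1, pandas 2.3.3 and matplotlib 3.10.9 were used.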

Additional observations from a re-analysis of the deposited data

Results flagged for a closer look

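In 6 of 32 sets of 6 ganglion 10 values examined, 1 library stood apart by Dixon's ratio at its 95% critical value. The usual rate of about 1 in 20 is no reference here. The selection used these same values and set a floor under the lowest of each set, and each flagged value was the highest of its set. The flags are therefore a description. The sets are the named transcripts and the summed CPM of the 200, and 3 of the 6 flagged were named for their high variability. Another, comp50680_c0_seq1, was named for a difference between libraries within ganglion 10. comp111646_c0_seq1 had 6.25 CPM in library 2 against 3.47 CPM in the next library. comp20195_c0_seq1 had 69.2 CPM in library 10 against 34.3 CPM. comp60833_c0_seq1 had 33.6 CPM in library 5 against 2.63 CPM. comp81250_c0_seq1 had 18.4 CPM in library 2 against 3.27 CPM, and comp145760_c0_seq1 had 9.38 CPM in library 2 against 0.927 CPM. comp50680_c0_seq1 had 34.0 CPM in library 2 against 7.24 CPM. Library 2 was the one apart in 4 of the 6.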

How the results depend on the processing

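Against 506 single-row components that separated, 2095 did with libraries 1 to 9 alone, 1546 without libraries 2 and 5, and 139 with at least 10 counts required in every ganglion 10 library. Leaving out single libraries gave 570 to 1144, most without library 7 (1144) or library 4 (1041), and 840, 778 and 770 without libraries 8, 2 and 6. Fewer libraries can only widen a gap, so all 200 kept theirs there, and the pseudocount cannot change which components separate. The minimum of 10 counts left 83 of the 200.

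Which components rank in the top 200 depended strongly on the libraries. The overlap with the 200 was 49 with libraries 1 to 9 alone and 47 without libraries 2 and 5, both with more components to rank, 83 with the minimum of 10 counts, and 75 to 181 when single libraries were left out, lowest without library 7 (75) and library 4 (89), and 116, 128, 129 and 132 without libraries 8, 6, 12 and 2. The gap of comp44333_c0_seq1 became -0.51 with upper quartile scaling and -0.0090 with median-of-ratios size factors. The last transcript inside, comp37489_c0_seq1, had a gap of 1.07 without library 7.

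For ganglion 19 against ganglion 2, edgeR called 0 contigs and 0 members, and 0 when any 1 library was left out. DESeq2 called 3212 contigs and 7 members, and edgeR called 13 contigs and 0 members when only these ganglia were fitted. Within ganglion 10, edgeR called 0 contigs and 0 members, DESeq2 489 contigs and 1 member, and edgeR 1 contig without a filter and 1 without libraries 2 and 5, where the log2 difference of comp24022_c0_seq1 turned to 0.23. Single-library omissions gave 0 to 201 contigs and 0 to 1 members, the higher values both without library 8. The causes were not tested. The median log2 fold change of the members over the ends stayed between 4.38 and 5.29. comp76979_c0_seq1 without library 9 and comp84255_c0_seq1 without library 6 had no counts at either end and gave no value. No paired analysis was possible because each library carries its own number and no label ties libraries to a leech. At a common depth of 6436783 counts, 187 of the 200 kept a gap. At full depth, 117 of the 200 had under 10 counts in their lowest ganglion 10 library.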
